A study of Rattus norvegicus with 46 samples.

Results

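Linoleate was compared with stearate in cultured rat heart muscle cells, over every gene that the arrays detected. Both are long-chain fatty acids of equal chain length: stearate is saturated, and linoleate carries a pair of double bonds. The comparison used 7 linoleate and 8 stearate arrays, 15 of the 46 arrays of the study, chosen by the column names of the probe table that had not been normalized. Cardiomyocytes isolated from adult male wildtype Wistar rats were kept overnight in medium without serum, and then given 0.4 mM stearate, 0.4 mM linoleate or another fatty acid for 24 h. All media, those of the controls included, held 1% bovine serum albumin (BSA), the carrier to which the fatty acids were bound. The control group (7 arrays) had BSA alone, and the oleate group (8 arrays) had 0.4 mM of the fatty acid of the same chain length with a single double bond. RNA was hybridised to Illumina rat BeadChips, on which each probe is a 50-base oligonucleotide on beads, read with 1 dye. Nothing in the labels tells whether arrays of 1 group stem from separate animals or cultures. The p-values therefore reflect the spread among these samples alone, and that spread may be technical.

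Heart muscle draws most of its energy from fatty acids, which enter mitochondria through carnitine palmitoyltransferases and are also stored as triglyceride in lipid droplets. Fatty acids and their derivatives are ligands of the peroxisome proliferator-activated receptors (PPARs), nuclear receptors that switch on genes of fatty acid use. Saturated long-chain fatty acids enter triglyceride less readily, and in many cell types they are known to trigger stress programmes that unsaturated ones trigger less. Sterol regulatory element-binding proteins (SREBPs) switch on lipid synthesis, SREBP2 mainly the enzymes that make cholesterol.

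Levels are background-corrected, quantile-normalized intensities on a log2 scale. They can be set against each other between arrays for 1 gene, but not between genes. A change is the linoleate mean minus the stearate mean, ± its standard error in a limma model of all 46 arrays, and a gene passed where its adjusted p was under 0.05. Of 7182 genes tested, 295 (4.11%) passed, 188 of them higher (2.62%) and 107 lower (1.49%) under linoleate. The change was 2-fold or more for 59 of the higher and 53 of the lower genes. Linoleate and stearate arrays did not overlap at all for 36 genes (0.501%), 17 higher and 19 lower. This balance of higher and lower depends on the scaling: when arrays were brought to a common median in place of quantile normalization, 521 genes were higher and 13 lower, while the median change of all genes moved from 0.04 to 0.40. Changes given below are those after quantile normalization, and a list's change is read against the median of all genes. A list's counts between linoleate and stearate are read against the 2.62% higher and 1.49% lower of all genes.

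**Figure D1:**
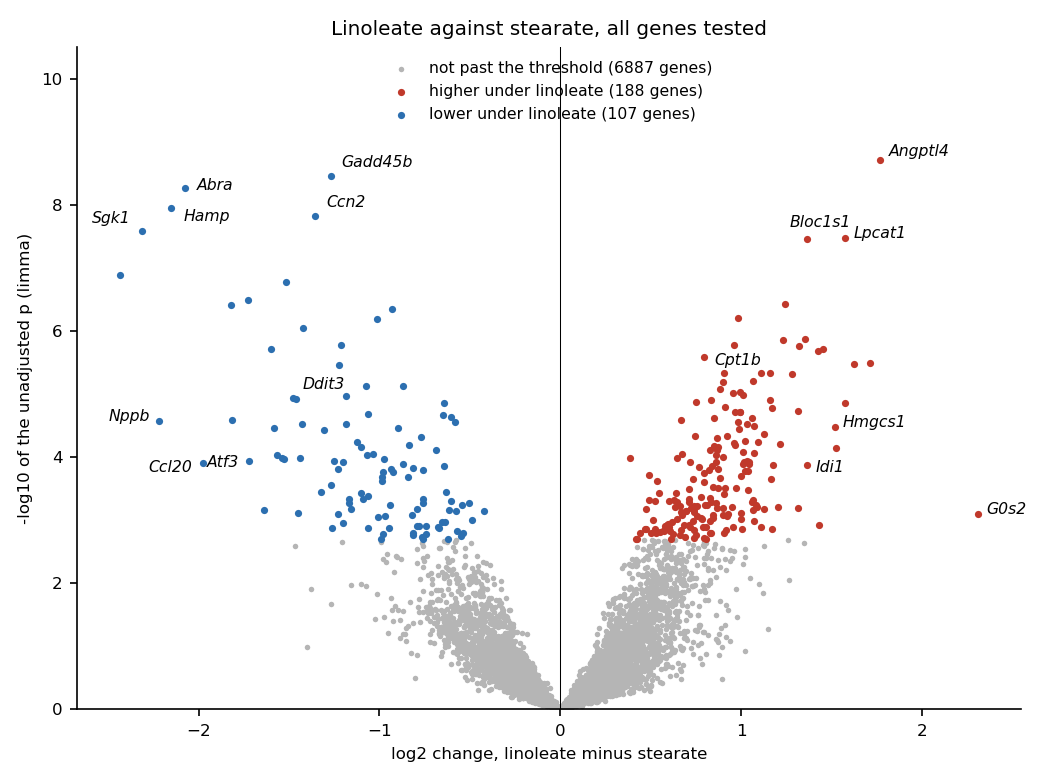
Each point is 1 of the 7182 genes tested. The horizontal axis gives the log2 change (linoleate minus stearate), the vertical axis the negative log10 of the unadjusted p-value from limma, and colours mark the 188 genes that passed and were higher and the 107 that passed and were lower under linoleate. Angptl4 stands highest among the higher genes and Gadd45b among the lower ones, and G0s2 has the largest rise.

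Some arrays stood apart from their groups. For the 15 largest rises and 15 largest falls, the linoleate array numbered 4 lay nearer the stearate median for 17 genes, and the stearate array numbered 4 lay nearer the linoleate median for 18, against 0 to 4 for each other array. Without both of these arrays 540 genes passed (362 higher and 178 lower), 285 of the 295 among them. Both arrays were singled out by their values for the genes with the largest changes. Leaving them out therefore tends to widen changes and lower p-values. Counts and p-values without them, here and below, show this dependence and are not separate evidence of a difference. Array quality also varied within both groups. The signal range, the 95th percentile of the raw signal divided by its median, ran from 5.81 to 15.96 over linoleate arrays and from 4.79 to 16.1 over stearate arrays. It averaged 9.73 ± 4.24 (SD, n = 7) and 9.30 ± 4.64 (SD, n = 8), and the difference did not pass (two-sided exact permutation test, p = 0.848, and 0.848 adjusted over 2 measures). Linoleate arrays detected 5552 ± 829.4 probes (SD, n = 7) and stearate arrays 5138 ± 1492 (SD, n = 8) (exact permutation test, p = 0.522, adjusted p = 0.848), which did not pass either. The arrays were split at a range of 8, a value chosen after the data were seen. Within the 3 linoleate and 4 stearate arrays of a range over 8, no gene passed in limma (0 of 7182, with 472 at an unadjusted p under 0.05). Within the 4 and 4 arrays of a range under 8, 411 genes passed. A test of the difference between these classes of array found 0 genes (limma, 579 at an unadjusted p under 0.05, smallest adjusted p = 0.122). Within 1 fatty acid, 1603 genes passed between the classes among stearate arrays, and 0 among linoleate arrays (limma, 1381 at an unadjusted p under 0.05). Among stearate arrays the wide class was replicates 1 to 4 and the narrow class replicates 5 to 8. Signal range and replicate number therefore cannot be told apart for the 1603 genes. Among linoleate arrays the wide class was replicates 1, 4 and 6. The 295 genes kept their sign in both classes, but they were chosen on the same arrays. The median change of the higher genes was 0.66 in arrays of wide range and 1.11 in arrays of narrow range. That of the lower genes was -0.63 and -1.27. Both arrays numbered 4 were in the class of wide range, at 13.46 for linoleate and 15.55 for stearate. Their part in the smaller changes and the lack of passing genes in that class was not tested.

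**Figure D2:**
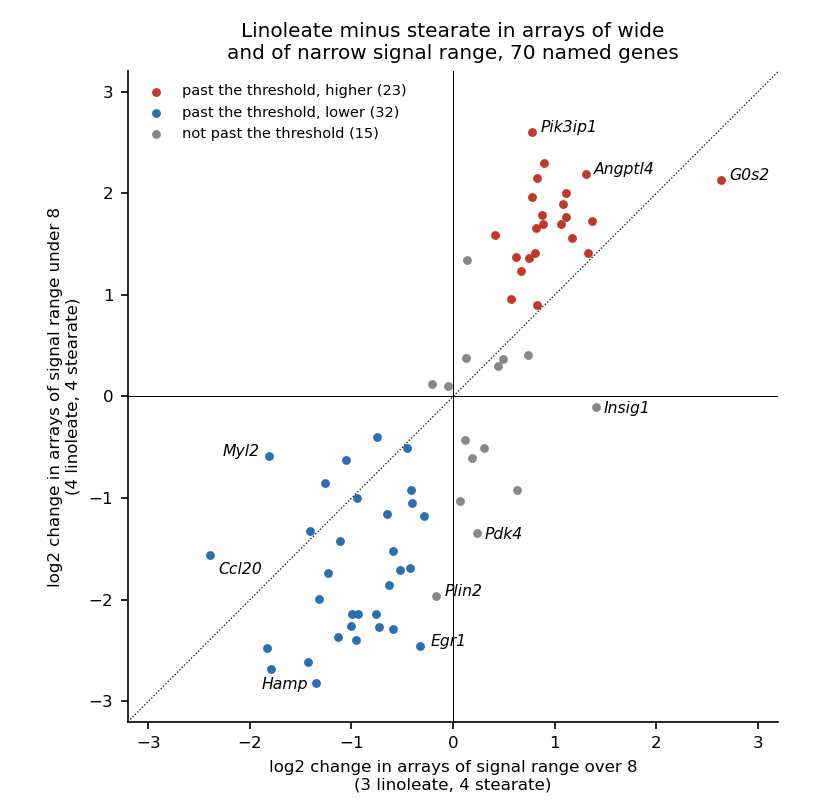
Each point is 1 of 70 named genes, with its log2 change (linoleate minus stearate) in arrays of a signal range over 8 on the horizontal axis and in arrays of a range under 8 on the vertical axis; the dotted line marks equal changes. All 55 named genes that passed lie on the same side of 0 in both classes, and 48 of them are farther from 0 in arrays of narrow range, while Pdk4 and Insig1 are among the genes that did not pass and that change sign.

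The cells carried the marks of heart muscle. Of 20 cardiomyocyte markers 18 were tested, all 18 were detected in every linoleate array and 17 in every stearate array. Their summed linear level had a median of 272872 over linoleate arrays and 289538 over stearate arrays, with highest values of 368345 and 379612. Of 10 endothelial markers 7 had a probe on the array, and none of these passed the detection filter. Among markers with a probe, 7 of 12 fibroblast, 1 of 8 adipocyte and 4 of 5 erythroid markers (6 listed) passed it. So did 3 of 7 smooth muscle and pericyte (9 listed) and 3 of 8 macrophage and leukocyte markers (10 listed). Of all these, Cspg4 (a pericyte proteoglycan, higher), Myl2 and Csrp3 (both of cardiomyocytes, lower) passed between linoleate and stearate. In such bulk RNA fewer cells of a type and less RNA per cell cannot be told apart.

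Among PPAR targets linoleate and stearate differed at a few genes, and for most they did not pass a test. Of 38 listed genes 31 were tested. Of these 3 were higher, Angptl4 and Cpt1b among them, and 0 lower, against 2.62% and 1.49% of all genes. The median change was 0.08 against 0.04 over all genes. Without both arrays numbered 4 the counts were 5 higher and 2 lower. Each fatty acid on its own, set against the same control arrays, gave 12 higher and 0 lower of these 31 for linoleate (background 0.473% of all genes, 0.334% higher), and 13 higher and 1 lower for stearate (13% of all genes, 4.19% higher).

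Angptl4 encodes a secreted inhibitor of lipoprotein lipase and is a classical PPAR target. Its level ran from 7.56 through a median of 9.32 to 9.59 in linoleate arrays, and from 6.17 through 7.36 to 8.06 in stearate arrays. The groups overlapped only through the linoleate array numbered 4, which held the 7.56, and every other linoleate array lay above every stearate array. The change was 1.77 ± 0.24, or 3.41-fold (adjusted p = 1.24e-05), and 1.97 without both arrays numbered 4. The probe was detected in 7 of 7 linoleate but 4 of 8 stearate arrays, and a second probe of the gene gave 0.22 ± 0.22 (adjusted p = 0.661). The probe was not well above background in any of the 7 control arrays. Set against the lowest detected signal there, Angptl4 was at least 4.72-fold higher under linoleate and at least 1.38-fold higher under stearate. These bounds were not tested. The limma test used the levels without that floor, and against control both passed (adjusted p = 7.26e-12 for linoleate and 0.000764 for stearate).

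Cpt1b, the muscle carnitine palmitoyltransferase that lets long-chain fatty acids into mitochondria, separated the groups completely. Linoleate arrays ran from 10.42 through 10.71 to 11.29 and stearate arrays from 9.77 through 9.97 to 10.08. The change was 0.80 ± 0.15 (1.74-fold, adjusted p = 0.000722). Against control, linoleate raised it by 1.01 (adjusted p = 4.29e-05), and the stearate difference of 0.21 did not pass (adjusted p = 0.377).

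The other PPAR targets named did not pass between the fatty acids, although several were far above control in both. Pdk4, the kinase that turns off pyruvate dehydrogenase, ran from 9.56 through 10.66 to 11.41 under linoleate and from 7.33 through 11.30 to 12.73 under stearate. The 7.33 is the stearate array numbered 4, which fell within the control range of 6.17 to 7.97. Pdk4 rose by 3.60 under linoleate (adjusted p = 1.50e-06) and by 4.14 under stearate (adjusted p = 3.01e-08), and the difference of -0.54 had a 95% interval from -1.46 to 0.38 (adjusted p = 0.586). Acot1, a cytosolic acyl-CoA thioesterase, was not well above background in any control array. Acot1 was at least 2.97-fold higher under linoleate and at least 3.29-fold higher under stearate, bounds that were not tested. The limma test used the levels without a floor, and against control both passed (adjusted p = 4.66e-05 for linoleate and 3.26e-06 for stearate). The fatty acids differed by -0.15 (interval -0.93 to 0.63). The liver isoform Cpt1a differed by 0.76 (interval 0.06 to 1.45, adjusted p = 0.24), and Ucp3, a mitochondrial carrier, by -0.12 (interval -0.63 to 0.39).

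Lipid droplet genes held the largest rise of a named gene. G0s2, a protein that inhibits the triglyceride lipase ATGL, ran from 11.33 through 12.28 to 13.59 under linoleate and from 9.16 through 9.79 to 11.17 under stearate, with no overlap. The change was 2.31 ± 0.64 (4.96-fold, adjusted p = 0.0274). It passed in 17 of 24 planned settings, and did not with no detection filter or without linoleate replicate 3, 4 or 6 or stearate replicate 5, 6 or 8 (adjusted p up to 0.0659). Control arrays ran from 10.06 to 13.79 with a median of 11.77, so the stearate arrays were the low ones: stearate lay below control by -2.01 (adjusted p = 0.0311), and linoleate differed from control by 0.30 (adjusted p = 0.988). Plin2, the coat protein that rises with droplet load, went the other way without passing: its level was 9.28 to 11.85 under linoleate and 8.59 to 12.43 under stearate (-1.16 ± 0.44, adjusted p = 0.133). The 8.59 is again the stearate array numbered 4. Without both arrays of that number the Plin2 change was -1.82 (limma, adjusted p = 0.00117). Because the removed stearate value was the outlying one, that p-value cannot decide whether Plin2 differed. Of 19 tested genes of lipid droplets and triglyceride turnover G0s2 alone passed, and the median was 0.21. Lpcat1, which joins acyl chains to lysophosphatidylcholine, passed as higher (1.58 ± 0.24, adjusted p = 3.20e-05). It was detected in 5 of 7 linoleate but 1 of 8 stearate arrays, so its size is not given as a fold. With each array raised to at least its lowest detected signal, the means differed by 0.18.

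Enzymes of cholesterol synthesis were the list most often higher under linoleate. Of 26 listed genes 20 were tested, 8 were higher and 0 lower, against 2.62% and 1.49% of all genes, and the median change was 0.70. All 20 lay above 0, from 0.19 to 1.52. Without both arrays numbered 4, 9 were higher and 0 lower, and under median scaling 8 and 0, with a median of 0.95 against 0.40 for all genes. In arrays of wide signal range none of the 20 passed and the median was 0.60, and in those of narrow range 7 passed and the median was 1.04.

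The genes that passed came from early and late steps of the pathway. Hmgcs1, a synthase of the early pathway, ran from 10.42 through 12.60 to 13.73 under linoleate and from 10.11 through 10.82 to 11.38 under stearate (1.52 ± 0.33, 2.86-fold, adjusted p = 0.00345). The linoleate array numbered 4 held the 10.42, and every other linoleate array lay above every stearate array. Idi1, the isopentenyl diphosphate isomerase, showed no overlap, with 8.38 to 9.48 under linoleate and 7.09 to 8.26 under stearate (1.37 ± 0.33, 2.58-fold, adjusted p = 0.00809). Idi1 was detected in 7 of 7 linoleate and 5 of 8 stearate arrays. Its means were 8.99 and 7.92 with each array raised to at least its lowest detected signal.

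Acat2, which condenses acetyl-CoA at the entry of the pathway, rose by 1.16 ± 0.24 (adjusted p = 0.00197), and the squalene epoxidase Sqle passed at 0.79 ± 0.23 (adjusted p = 0.0372), with Sqle detected in 3 of 7 linoleate and 1 of 8 stearate arrays. With each array raised to at least its lowest detected signal, Sqle differed by -0.17. The late enzymes Sc5d (1.04 ± 0.25, adjusted p = 0.00904) and Dhcr7 (1.05 ± 0.25, adjusted p = 0.00761) passed as well. Dhcr7 was not well above background in any stearate array and was detected in 4 of 7 linoleate arrays, so its size is not given as a fold. Fdps, Cyp51 and Msmo1 differed by 0.88, 0.79 and 1.02 and did not pass (adjusted p = 0.0912, 0.0518 and 0.0728). Insig1, which holds SREBPs in the endoplasmic reticulum and is itself an SREBP target, ran from 8.82 to 12.42 under linoleate and from 8.83 to 9.73 under stearate (0.54, interval -0.55 to 1.62). The linoleate array numbered 4 held the 12.42, and the next highest linoleate array was at 10.43. Without both arrays numbered 4 the Insig1 change was 0.08. Slc25a1, the citrate carrier that exports the carbon for lipid synthesis from mitochondria, was higher (1.32 ± 0.24, adjusted p = 0.000572), detected in 7 of 7 linoleate and 3 of 8 stearate arrays. Its means differed by 0.54 with each array raised to at least its lowest detected signal.

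Set against control, 0 of the 20 passed under linoleate in limma (3 at an unadjusted p under 0.05), beside 0.473% of all genes. Under stearate 0 were higher and 3 lower, beside 4.19% and 8.86% of all genes. Hmgcs1 was 0.57 above control under linoleate (adjusted p = 0.798) and -0.95 from control under stearate (adjusted p = 0.0485). Idi1 differed from this, with 1.25 under linoleate (adjusted p = 0.103) and -0.12 under stearate (adjusted p = 0.872).

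**Figure D3:**
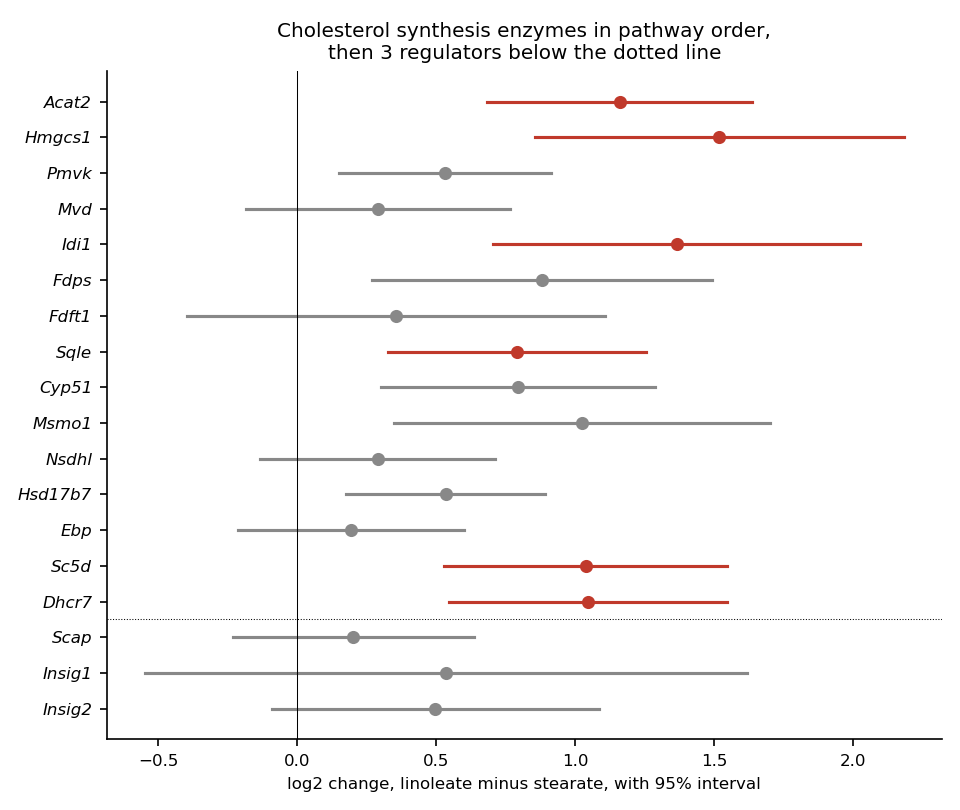
Points are log2 changes (linoleate minus stearate) and bars their 95% intervals for genes of cholesterol synthesis and uptake, in the order of the pathway from top to bottom and then 3 regulators below the dotted line; genes that passed are red. All points lie to the right of 0, and the genes that passed lie at the top (Acat2, Hmgcs1), in the middle (Idi1, Sqle) and among the late enzymes (Sc5d, Dhcr7).

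Promoter windows of 300 bases, from 250 bases before to 50 after the gene's start, were read from RefSeq (assembly GRCr8) for genes of lists with at least 3 members called the same way. Of the 8 cholesterol genes that passed, 5 had a window there. The sterol regulatory element, a site of SREBPs searched on both strands, was in 0 of these 5 and in 0.269% of all 33469 windows. The CCAAT box, the letters bound by the factor NF-Y, was in 3 of the 5 (Hmgcs1, Idi1 and Sc5d) and in 37.5% of all windows. Of the p53 targets and cell death genes that were lower, 4 of 4 with a window held it (Gadd45a, Gadd45b, Gadd45g and Mdm2). In the other lists searched it was in 1 of 3 ATF4, 1 of 3 immediate early and 0 of 4 fetal and hypertrophic genes. Of PPAR targets 0 of 1 held it. These counts are of genes, but the 37.5% is of windows, of which there were 33469 for 27457 genes. The CCAAT box was searched after the other motifs had been seen. Both windows with a pair of boxes are shown because these genes had the largest changes of the 5, with the boxes in capitals as they read on the gene's own strand. The AP-1 letters TGANTCA and the antioxidant letters TGACNNNGC overlap each other in the window of Idi1, and they are in 7.33% and 12.1% of all windows. The window of Hmgcs1 is chr2:53382054-53382353 on the + strand and that of Idi1 is chr17:66547475-66547774 on the - strand.
Hmgcs1: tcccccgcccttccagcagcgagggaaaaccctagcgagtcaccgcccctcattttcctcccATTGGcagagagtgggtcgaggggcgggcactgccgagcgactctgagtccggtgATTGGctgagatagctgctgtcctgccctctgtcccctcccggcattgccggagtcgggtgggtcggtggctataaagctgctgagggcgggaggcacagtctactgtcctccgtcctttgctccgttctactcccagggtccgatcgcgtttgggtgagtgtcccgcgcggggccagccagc
Idi1: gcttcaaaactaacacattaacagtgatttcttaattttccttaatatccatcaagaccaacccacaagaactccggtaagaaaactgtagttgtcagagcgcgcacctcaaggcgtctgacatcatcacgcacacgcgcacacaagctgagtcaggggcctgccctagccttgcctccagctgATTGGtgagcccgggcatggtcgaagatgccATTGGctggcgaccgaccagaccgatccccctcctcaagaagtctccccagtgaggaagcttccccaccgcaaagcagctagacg

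Genes of fatty acid desaturation and synthesis did not pass. Of 25 listed SREBP1 targets 9 were tested, with 0 higher and 0 lower in limma (2 at an unadjusted p under 0.05) and a median of 0.17. Srebf1 itself differed by 0.51 (interval 0.06 to 0.96, adjusted p = 0.218), the desaturases Scd2 by 0.24 (interval -0.30 to 0.77) and Fads1 by -0.18 (interval -0.62 to 0.25). Scd and Fads2, desaturases with a probe on the array, did not pass the detection filter. Linoleate needs auxiliary enzymes for its double bonds in beta-oxidation, and stearate does not. Of 8 such enzymes tested 0 passed in limma (2 at an unadjusted p under 0.05), with a median of 0.15. The dienoyl-CoA reductase Decr1 differed by 0.33 (interval -0.15 to 0.82), and the isomerases Eci1 and Eci2 by 0.04 (interval -0.39 to 0.47) and -0.07 (interval -0.64 to 0.51). Decr1 was above control under both, by 1.04 under linoleate (adjusted p = 0.0303) and 0.71 under stearate (adjusted p = 0.0422). In mitochondrial beta-oxidation, Cpt1b rose, the hydratase Echs1 fell (-0.57 ± 0.17, adjusted p = 0.0403) and 19 of 21 did not pass; without both arrays numbered 4 Echs1 did not pass either (adjusted p = 0.107).

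**Figure D4:**
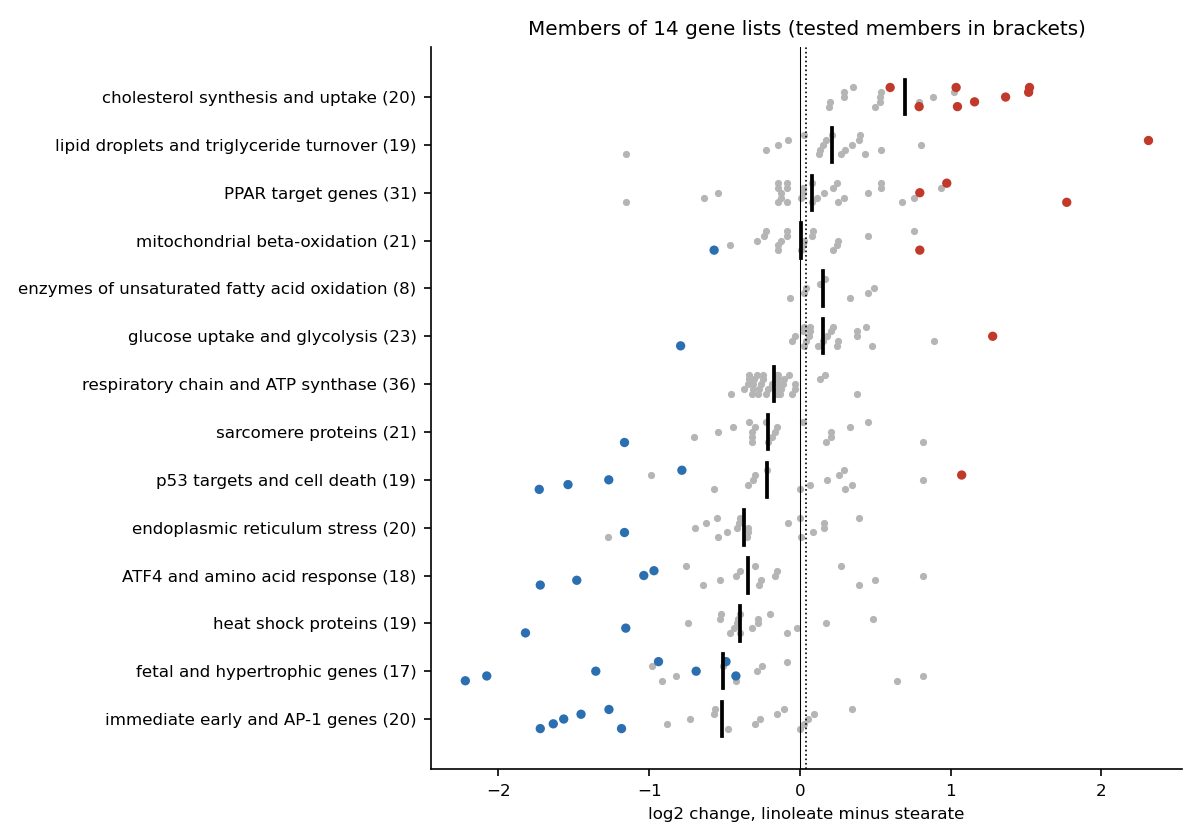
Each row is 1 gene list and each point 1 tested member at its log2 change (linoleate minus stearate); red and blue points passed, black bars are medians, and the dotted line is the median of all genes. Cholesterol synthesis lies farthest to the right, with a median of 0.70, and immediate early, fetal and heat shock genes farthest to the left, with medians of -0.52, -0.51 and -0.40.

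Of the hypertrophic and fetal programme of heart muscle, 17 of 24 listed genes were tested. Under linoleate 7 of the 17 were lower and 0 higher, against 1.49% and 2.62% of all genes, and the median was -0.51. Without both arrays numbered 4, 10 were lower, beside 178 of all 7182 genes. Under median scaling 1 was higher and 2 lower, with a median of -0.09 against 0.40 for all genes. In arrays of wide signal range 0 passed (median -0.41).

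Nppb, the B-type natriuretic peptide secreted by strained heart muscle, ran from 9.02 through 10.40 to 12.87 under linoleate and from 10.95 through 12.74 to 13.79 under stearate. Both arrays numbered 4 lay at the far end of their groups, at 12.87 for linoleate and 10.95 for stearate, and the oleate array of that number was also the highest of its group (12.24). The change was -2.22 ± 0.48 (4.66-fold lower, adjusted p = 0.00306) and -2.87 without both arrays. Abra, an actin-binding activator of serum response factor signalling, ran from 9.55 through 9.83 to 11.33 and from 10.40 through 12.41 to 12.66 (-2.08 ± 0.29, 4.22-fold lower, adjusted p = 1.30e-05). Ccn2, connective tissue growth factor, did not overlap, with 12.41 to 12.95 under linoleate and 13.39 to 14.49 under stearate (-1.35 ± 0.20, 2.56-fold lower, adjusted p = 2.15e-05). Timp1, a metalloproteinase inhibitor, did not overlap either, with 9.38 to 10.44 and 10.66 to 11.50 (-0.94 ± 0.23, adjusted p = 0.00873).

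The calcineurin inhibitor Rcan1, a calcineurin target itself, fell by 0.69 ± 0.16 (adjusted p = 0.00603), the Z-disc protein Csrp3 by 0.49 ± 0.14 (adjusted p = 0.0311) and the muscle ankyrin repeat protein Ankrd1 by 0.42 ± 0.12 (adjusted p = 0.0254). Other members of the programme did not pass: Nppa, the atrial peptide, differed by -0.51, Acta1 by -0.08 and the fetal heavy chain Myh7 by 0.82. Of the 17 tested, 0 passed against control under linoleate in limma (2 at an unadjusted p under 0.05). Under stearate 9 of the 17 were higher than the same control arrays and 0 lower, against 4.19% and 8.86% of all genes. Among the 9 were Nppb, Abra, Ccn2, Rcan1, Csrp3 and Ankrd1, by 2.56, 2.32, 0.80, 0.82, 0.53 and 0.58. Timp1 did not pass (0.55). Among sarcomere proteins 1 of 21 passed, the ventricular light chain Myl2, which fell by 1.17 ± 0.31 (adjusted p = 0.0206); the median was -0.21, and 0.25 against 0.40 for all genes under median scaling.

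Immediate early genes are mostly transcription factors switched on within minutes by growth and stress signals. Of 20 tested 6 were lower under linoleate and 0 higher, against 1.49% and 2.62% of all genes. The median was -0.52, and 4 of the 20 lay above 0. Without both arrays numbered 4, 10 were lower, and under median scaling 1, with a median of -0.06 against 0.40 for all genes. In arrays of wide signal range 0 passed in limma (median -0.25). Fos, which forms the AP-1 dimer with Jun, ran from 6.63 through 7.18 to 8.47 under linoleate and from 6.86 through 9.43 to 10.19 under stearate (-1.64 ± 0.45, 3.11-fold lower, adjusted p = 0.0245). Fos was detected in 5 of 7 linoleate and 8 of 8 stearate arrays. Jun fell by 1.27 ± 0.32 (adjusted p = 0.0138), Fosl1 by 1.57 ± 0.37 (adjusted p = 0.00681), the zinc finger factor Egr1 by 1.45 ± 0.40 (adjusted p = 0.0264) and Ier2 by 1.18 ± 0.26 (adjusted p = 0.0032). Egr1 differed by -0.32 in arrays of wide signal range, which hold both arrays numbered 4, and by -2.46 in those of narrow range. For all 5 the lowest stearate array was not above the highest linoleate array.

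The ATF4 pathway answers amino acid shortage and endoplasmic reticulum stress. Of its 18 stress genes tested 4 were lower and 0 higher, against 1.49% and 2.62% of all genes, and the median was -0.34. Under median scaling 1 was higher and 2 lower (median 0.02 against 0.40 for all genes). Atf3, a stress-induced repressor that the immediate early list also holds, ran from 7.12 through 7.82 to 8.96 under linoleate and from 6.85 through 9.89 to 10.65 under stearate (-1.72 ± 0.41, 3.30-fold lower, adjusted p = 0.00761). The 6.85 is the stearate array numbered 4, and the other 7 stearate arrays lay above every linoleate array. Ddit3, the cell death factor CHOP, ran from 9.28 through 10.34 to 10.82 and from 9.75 through 12.07 to 12.38 (-1.48 ± 0.30, 2.79-fold lower, adjusted p = 0.00193), with the same array lowest. Psph, of serine synthesis, fell by 1.04 ± 0.24 (adjusted p = 0.00665), and Nupr1, a small stress-induced chromatin protein, by 0.97 ± 0.27 (adjusted p = 0.0282). Trib3, a pseudokinase induced by CHOP, went against these without passing (0.39, interval -0.17 to 0.95), and Atf4 itself differed by -0.39. Neither fatty acid moved Nupr1 past the test against control (-0.88 under linoleate, adjusted p = 0.309, and 0.09 under stearate, adjusted p = 0.88).

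The window of Nupr1, 1 of 3 ATF4 genes with a window out of the 4 that passed, is the only one of the 3 with the ATF4 element TGATGNAAT, which is in 1.09% of all windows on either strand. It lies at chr1:190645852-190646151 on the - strand and is shown with the element in capitals, as it reads on the gene's own strand.
Nupr1: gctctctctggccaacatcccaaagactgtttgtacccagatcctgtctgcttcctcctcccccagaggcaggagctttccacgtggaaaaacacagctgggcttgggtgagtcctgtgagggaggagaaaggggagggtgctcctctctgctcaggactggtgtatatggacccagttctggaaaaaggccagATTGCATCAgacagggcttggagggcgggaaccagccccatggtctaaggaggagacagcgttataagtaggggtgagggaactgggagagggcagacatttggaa

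Most genes of endoplasmic reticulum stress did not pass. Of 20 tested 1 was lower, Ppp1r15a, the phosphatase subunit that restarts translation after stress (-1.17 ± 0.31, adjusted p = 0.0216), and the median was -0.37 (0.09 against 0.40 for all genes under median scaling). Hspa5, the chaperone BiP, differed by -0.55 (interval -0.96 to -0.13, adjusted p = 0.133). The arrays numbered 4 held its highest linoleate and its lowest stearate level. Without both, the Hspa5 change was -0.81 (limma, adjusted p = 0.00567), a p-value that their removal tends to lower. Of 19 heat shock genes 2 were lower, against 1.49% of all genes. They were Zfand2a, an arsenite-inducible zinc finger protein (-1.82 ± 0.31, 3.53-fold lower, adjusted p = 0.000216), and Dnajb4 (-1.16 ± 0.32, adjusted p = 0.0244). Of these 19, 17 lay below 0 with a median of -0.40, and under median scaling 1 was lower and the median was 0.05 against 0.40 for all genes. Among NRF2 antioxidant genes 1 of 24 passed, Osgin1 (-1.58 ± 0.34, 2.99-fold lower, adjusted p = 0.00347). Hmox1, heme oxygenase, did not (-0.21, interval -1.18 to 0.77), with levels of 10.06 to 14.07 under linoleate and 10.995 to 12.28 under stearate.

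Of p53 targets and cell death genes, 1 was higher and 4 lower of 19 tested, against 2.62% and 1.49% of all genes. The 3 Gadd45 genes, small proteins of DNA damage and stress signalling, were all lower. Gadd45a ran from 8.57 through 9.38 to 10.60 under linoleate and from 10.57 through 11.13 to 12.08 under stearate (-1.73 ± 0.29, 3.32-fold lower, adjusted p = 0.00021), so the groups touched only at their ends. Gadd45b fell by 1.27 ± 0.17 (adjusted p = 1.24e-05) and Gadd45g by 1.54 ± 0.36 (adjusted p = 0.00715). Mdm2, the ligase that degrades p53, fell by 0.78 ± 0.23 (adjusted p = 0.0366), and Sesn1, another p53 target, rose by 1.07 ± 0.23 (adjusted p = 0.00339). Under median scaling 2 of the 19 were higher and 0 lower, and the 3 Gadd45 changes were -1.28, -0.78 and -1.08 without passing.

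Several of the largest falls were in genes outside the lists above. Sgk1, a kinase of the insulin and mineralocorticoid pathways, was the named gene with the largest fall: linoleate arrays ran from 6.13 through 7.32 to 8.71 and stearate arrays from 8.92 through 9.74 to 10.12, with no overlap (-2.31 ± 0.35, 4.97-fold lower, adjusted p = 3.15e-05). A gene with a placeholder name fell further, by 2.43. Sgk1 was detected in 4 of 7 linoleate and 8 of 8 stearate arrays. Control arrays of Sgk1 ran from 6.01 to 7.90, and stearate lay above them by 2.56 (adjusted p = 1.62e-06). Hamp, the iron hormone hepcidin, had no overlap either, with 7.59 through 9.12 to 9.98 under linoleate and 10.24 through 11.32 to 12.03 under stearate (-2.15 ± 0.31, 4.44-fold lower, adjusted p = 2.04e-05). Its control arrays lay between, at 9.29 to 10.69. Ccl20, a chemokine, ran from 8.78 to 9.54 and from 10.12 to 12.41 (-1.98 ± 0.47, 3.94-fold lower, adjusted p = 0.00788), Stc1, a secreted calcium regulator, from 8.10 to 10.04 and from 10.14 to 11.15 (-1.53 ± 0.36, adjusted p = 0.00726), and Pvr, an adhesion receptor, fell by 1.60 ± 0.29 (adjusted p = 0.000591). Sphk1, which makes sphingosine 1-phosphate, fell by 1.06 ± 0.22 (adjusted p = 0.00267), detected in 2 of 7 linoleate and 6 of 8 stearate arrays, and was 1 of 15 ceramide and sphingolipid genes to pass. Under median scaling 22 of the 23 named genes that were higher passed, but 9 of the 32 that were lower; Nppb, Ccl20 and Stc1 did not (adjusted p = 0.0732, 0.114 and 0.155).

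Other large rises were Pik3ip1, an inhibitor of phosphoinositide 3-kinase (1.71 ± 0.32, 3.28-fold, adjusted p = 0.000863), Cspg4 (1.63 ± 0.31, adjusted p = 0.000863) and Fbxl20, an F-box protein (1.57 ± 0.32, 2.98-fold, adjusted p = 0.00203). Pik3ip1 was detected in 7 of 7 linoleate but 4 of 8 stearate arrays. Its means were 8.38 and 7.69 with each array raised to at least its lowest detected signal, a smaller difference. Cspg4 was detected in 2 of 8 stearate arrays, and its means differed by 0.45 with each array raised to at least its lowest detected signal. The summed level of the 3 tested smooth muscle and pericyte markers ran from 32975 to 42569.7 under linoleate and from 25439 to 42020.5 under stearate. The part of such cells in the change of Cspg4 was not tested. Cx3cl1, the membrane chemokine fractalkine, rose by 1.43 ± 0.42 (adjusted p = 0.0361), and passed in 10 of 24 planned settings, failing in 12 of the 15 fits that left out 1 array (adjusted p up to 0.0961). Bloc1s1, of the complex that shapes lysosome-related organelles, ran from 11.81 to 12.63 under linoleate and from 10.44 to 12.22 under stearate, where the array numbered 4 held the 12.22 (1.36 ± 0.21, 2.57-fold, adjusted p = 3.20e-05). B4galt6, a lactosylceramide synthase, showed no overlap, with 9.57 to 10.29 and 7.39 to 9.51 (1.35 ± 0.24, adjusted p = 0.000526). Tep1 (1.45 ± 0.27, adjusted p = 0.000591), a telomerase-associated protein, and Plbd2 (1.43 ± 0.26, adjusted p = 0.000611), of lysosomes, rose too. In glycolysis 2 of 23 genes passed: the aldolase Aldoc rose by 1.28 ± 0.25 (adjusted p = 0.00106), with no overlap, and the muscle enolase Eno3 fell by 0.79 ± 0.22 (adjusted p = 0.0242), which did not pass without both arrays numbered 4 (adjusted p = 0.0647).

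Kcnj5, a subunit of the acetylcholine-activated potassium channel, passed as higher (1.05 ± 0.25, adjusted p = 0.00796), 1 of 24 genes of contraction and calcium handling to pass. It was detected in 5 of 7 linoleate and 1 of 8 stearate arrays, and with each array raised to at least its lowest detected signal the means differed by -0.015. Pex19, which inserts peroxisomal membrane proteins, rose by 0.87 ± 0.19 (adjusted p = 0.00455), but a second probe gave -0.05 (adjusted p = 0.885). The tyrosyl-tRNA synthetase Yars1 fell by 0.76 ± 0.20 (adjusted p = 0.0216), 1 of 16 cytosolic synthetases. No gene passed in limma among 36 of the respiratory chain and ATP synthase, of which 8 had an unadjusted p under 0.05. Their median was -0.17 with 33 of 36 below 0, and under median scaling 0.32 against 0.40 for all genes. Nor did any among 29 of pyruvate oxidation and the citric acid cycle (median -0.18, 3 at an unadjusted p under 0.05), 32 of the proteasome (median -0.06, 1 at that level) or 17 induced by hypoxia (median 0.12, 1 at that level). In all, 24 of the 38 gene lists held at least 1 gene that passed.

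**Figure D5:**
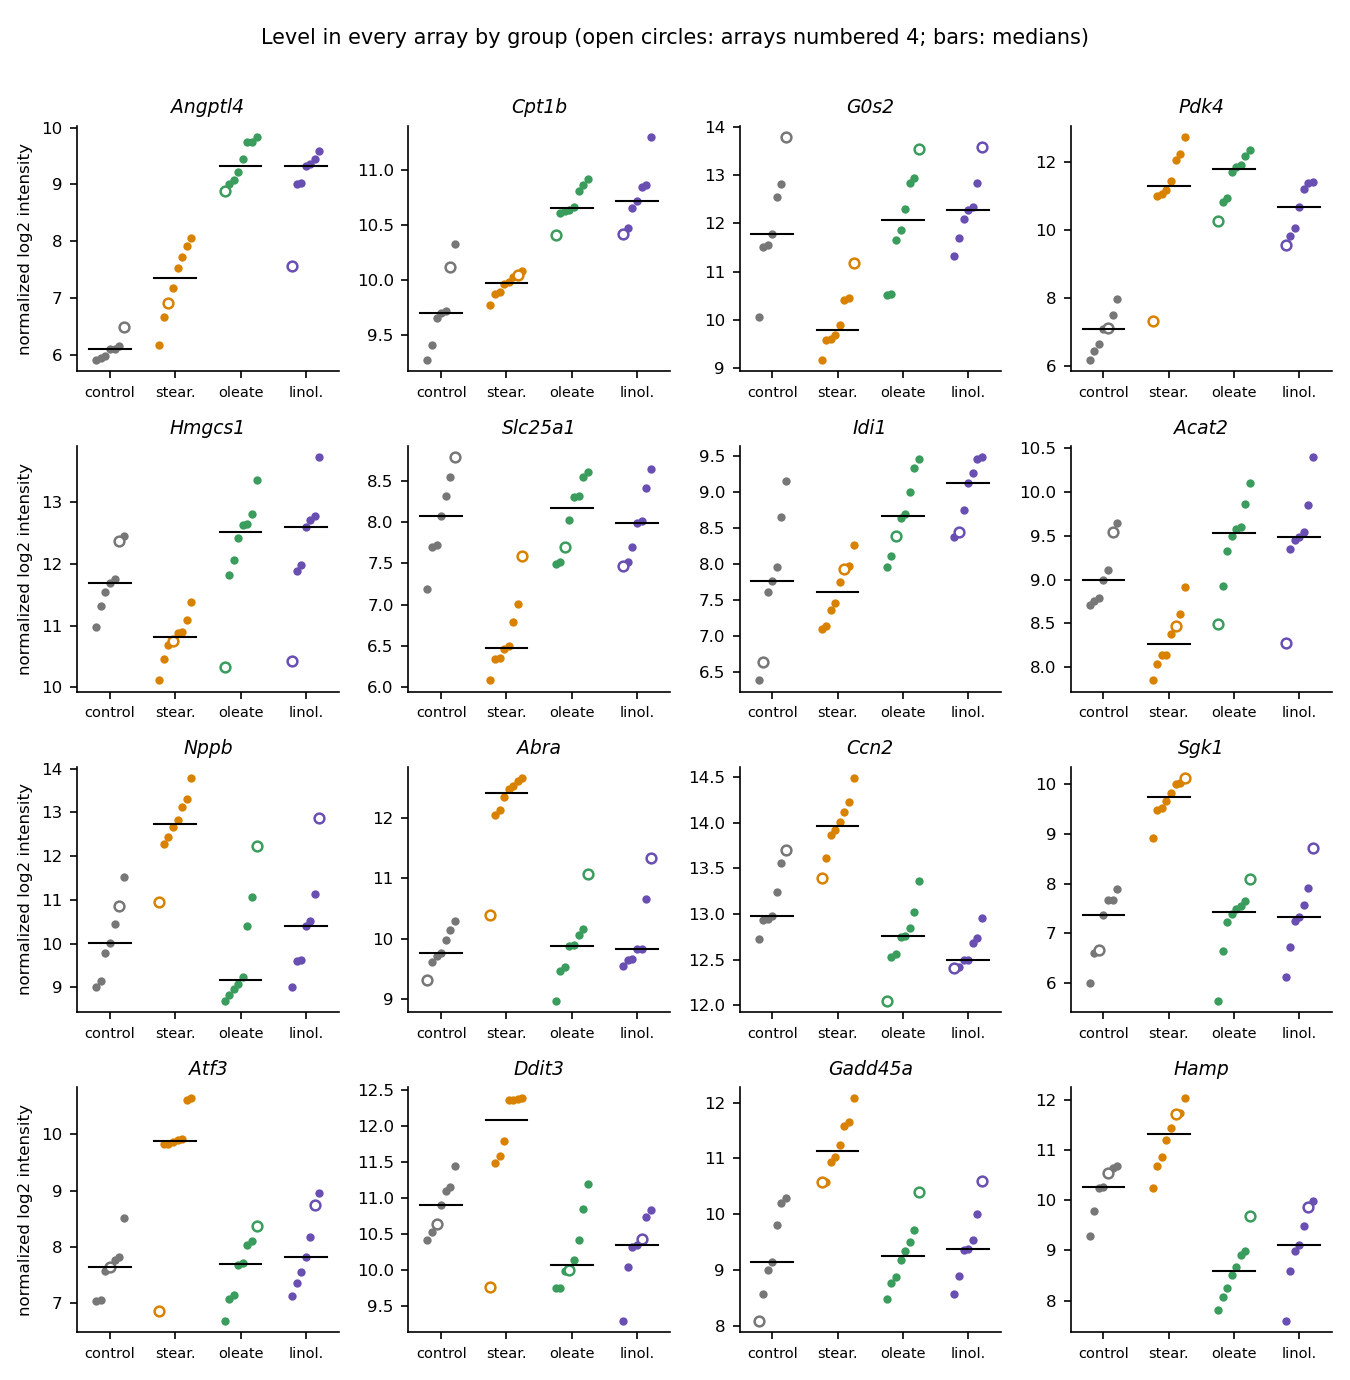
Normalized log2 intensity of 16 named genes in every array, by group, with the group's median as a bar and the arrays numbered 4 as open circles. Linoleate and oleate medians lie nearer to each other than to the stearate median in every panel but that of Pdk4, and the stearate array numbered 4 lies among the control values for Pdk4.

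The step from stearate to linoleate can be set beside its parts, stearate to oleate and oleate to linoleate, which share the stearate, oleate and linoleate arrays with it. Oleate against stearate gave 501 genes (6.98%), 338 higher (4.71%) and 163 lower (2.27%). Linoleate against oleate gave 0 genes (0%) in limma, with 32 at an unadjusted p under 0.05 and a smallest adjusted p of 0.737. The median 95% interval of that last comparison reached 0.46 to either side. Over the 55 named genes that passed between linoleate and stearate, linoleate was above oleate by at most 0.78 (Ccl20), and Pex19 differed by -0.35. Angptl4 was 2.10 higher under oleate than under stearate (adjusted p = 4.96e-08), beside 1.77 for linoleate, and the change between linoleate and oleate was -0.33. For Hmgcs1 these values were 1.47 (adjusted p = 0.00189), 1.52 and 0.04, for Nppb -2.86 (adjusted p = 3.93e-05), -2.22 and 0.64, and for Sgk1 -2.48 (adjusted p = 1.92e-06), -2.31 and 0.16.

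Both fatty acids can also be set beside control, with shared control arrays. Linoleate against control gave 34 genes (0.473%), 24 higher and 10 lower, and stearate against control 937, 301 higher (4.19%) and 636 lower (8.86%). Of the 23 named genes that were higher under linoleate than under stearate, 3 lay above control under linoleate, Angptl4 and Cpt1b among them, and 17 lay below and 1 (Angptl4) above control under stearate. Of the 32 that were lower, 0 passed against control under linoleate in limma (6 at an unadjusted p under 0.05), with differences from -1.12 to 0.49, and 23 lay above control under stearate.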

How the data were processed

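The authors deposited, per the file headers, a mean bead intensity and a detection p-value for each probe and array, exported with BeadStudio 3 per the submitters' processing notes and not normalized; the p-value compares a probe with negative-control beads and runs in steps of 1 over 825. The authors' processed table, deposited as intensity on a linear scale with nearly equal quantiles (column medians 173.2 to 173.9) and no centring of genes, served as an alternative; how it was normalized is not given in the sources used here. Probes were named through RefSeq tables (assembly GRCr8): of 22517 probes 17286 matched, 5034 kept the file's symbol and 197 had none. Intensities were background-corrected with limma 3.58.1 (R 4.3.3) by the normal-exponential model, with negative controls inferred from detection p-values and an offset of 16, then quantile normalized and log2-transformed. The detection filter asked for p under 0.01 in 7 or more arrays, which 7312 probes met. Genes with several such probes took the one of highest mean, which gave 7182 genes, 847 with placeholder names. Raw log2 signals within a group correlated at 0.893 to 0.992, and 0 pairs of arrays were identical.

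A model of 6 group means over 46 arrays with an intensity trend gave every contrast; two-sided p-values were adjusted over all genes by Benjamini-Hochberg, with a threshold of 0.05. Precision is limited by how many arrays there are: the median 95% interval reached 0.46 to either side. The fit was first tested on simulated data. A gene detected in no array of its lower group was given no fold where its bound was under 1.

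Members and lists were chosen with earlier results of these data known. Named were the 15 largest rises and falls that passed, without placeholder names, up to 5 genes that passed in each list, and 21 genes whether or not they passed; results of some genes that this rule or the lists hold are not reported here. Chosen after their values were seen, as examples from the lists, were Ier2, Sc5d, Sqle, Fdps, Cyp51, Msmo1, Ankrd1, Nppa, Acta1, Myh7 and Atf4.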

Additional observations from a re-analysis of the deposited data

Results flagged for a closer look

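In 146 sets of values, each the arrays of 1 group for 1 named gene or array measure, 24 held an array whose gap to the nearest other array was large against the range of its group. Chance alone gives such a gap in about 1 in 20 sets, and values of 1 array are not independent between genes. The stearate array numbered 4 was the distant one for 17 genes. It was high for the genes that linoleate arrays held higher, with Cspg4 at 7.97, Lpcat1 at 6.88, Cx3cl1 at 11.48 and Bloc1s1 at 12.22. It was low for Abra (10.40), Zfand2a (9.25), Atf3 (6.85), Pvr (9.49), Osgin1 (7.76), Fosl1 (7.38), Ddit3 (9.75), Ppp1r15a (8.26), Egr1 (9.39), Gadd45b (7.80), Rcan1 (12.64), Pdk4 (7.33) and Plin2 (8.59).

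The linoleate array numbered 4 was distant for 5 genes, low for Angptl4 (7.56) and Cx3cl1 (9.36) and high for Osgin1 (10.04), Ppp1r15a (10.09) and Hmox1 (14.07). For the same 5 genes the oleate array numbered 4 was at the same end of its own group. It was the lowest oleate array for Angptl4 (8.89) and Cx3cl1 (8.76). For Osgin1 (9.71), Ppp1r15a (9.85) and Hmox1 (13.68) it was the highest. Why arrays of this number stood apart was not tested. The stearate array numbered 8 was low for Stc1 (10.14) and Sesn1 (7.34). These levels are normalized log2 intensities. Whether the arrays numbered 4 hold the RNA their labels name was not tested.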

How the results depend on the processing

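Against 295 genes (188 higher, 107 lower), 313 passed without background correction, 299 with the authors' processed table and 305 without the intensity trend. Larger moves came with median scaling (534: 521 higher, 13 lower), no detection filter (166, 93 of them higher), only the 15 arrays in the fit (121: 72 higher, 49 lower), the replicate block (615: 402 and 213), array weights (786: 474 and 312) and signal range as a covariate (432). Chosen after seeing the data were arrays of signal range over 8 (0 passed in limma, 0 higher and 0 lower, with 472 at an unadjusted p under 0.05) or under 8 (411), that class as a block (357), and leaving out both arrays numbered 4 (540: 362 and 178). Leaving out 1 array gave 197 (without stearate replicate 6) to 452 (without stearate replicate 4) genes, 107 to 298 higher and 69 to 154 lower; without linoleate replicate 4, 425 passed. In each of the 15 such fits 149 of the 295 passed, as did 42 of the 55 named genes (not G0s2, Cx3cl1, Fos, Echs1, Ppp1r15a, Nupr1, Yars1, Dnajb4, Egr1, Mdm2, Myl2, Eno3 and Csrp3), and 65 passed in all 24 planned settings. Arrays that share only a number were not taken as pairs: their deviations from group means correlated at -0.22 to 0.66, with 5 of 7 pairs over 0.1 and 2 of 7 linoleate arrays closest to their own number.

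The difference in detected probes was 121 to 711 and in signal range -0.61 to 1.40 with 1 array left out; the latter was below 0 without linoleate replicates 1, 4 and 6 (-0.61, -0.19, -0.11) and stearate replicates 5, 7 and 8 (-0.12, -0.19, -0.21). Of 1960 recomputed changes of named genes 1724 stayed on their side of the threshold, 199 no longer passed, 12 newly passed and 25 changed sign, all of genes that did not pass. In arrays of range over 8 the log2 change was 0.23 for Pdk4, 0.63 for Acot1, 0.12 for Ucp3, 0.19 for Fads1, -0.046 for Eci1, 0.30 for Hmox1 and 0.067 for Hspa5; in those under 8 it was -0.10 for Insig1 and 0.12 for Eci2. Median scaling gave 0.41 for Acot1, 0.31 for Ucp3, 0.27 for Fads1, 0.46 for Eci2 and 0.28 for Hmox1, all read against 0.40 for all genes, and array weights 0.18 for Ucp3 and 0.093 for Fads1. With 1 array left out, the change ran from -0.029 to 0.19 for Eci1, from -0.18 to 0.017 for Eci2, from -0.26 to 0.021 for Ucp3 and from -0.65 to 0.017 for Hmox1. The causes were not tested.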
